A study of Mus musculus with 8 samples.

Results

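The Hes and Hey genes encode repressors of the basic helix-loop-helix (bHLH) Orange family. The 6 genes described here, Hes1, Hes5, Hes6, Hey1, Hey2 and Heyl, were chosen by symbol from an annotation of 21887 mouse protein-coding genes, and every one of them was found. For each, all listed peaks that overlapped the gene span or the 50 kb on either side were collected. A peak within 1 kb of an annotated end of the gene was counted as a gene-end peak, any other peak that touched the span as a gene-body peak, and the rest as flank peaks.

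When Notch is cleaved on contact with a ligand of a neighbouring cell, its intracellular part joins the DNA-binding protein RBPJ and Mastermind proteins and switches on Hes1, Hes5 and the Hey genes. Hes proteins recruit TLE corepressors through a short C-terminal motif and silence proneural genes such as the Neurogenin genes, which holds progenitors of the nervous system and inner ear in an undifferentiated state. Hes6 is the exception in the family, since it is induced by proneural factors and antagonises Hes1.

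The study used iMOPs (immortalized multipotent otic progenitors), a single wild-type mouse line derived from inner ear progenitors, as neurons and as dividing cells. The iMOP-derived neurons had been kept in Neurobasal with N21, L-glutamine at 2 mM and K03861, an inhibitor of the cell cycle kinase CDK2, at 1 µM. Proliferating iMOPs grew in DMEM/F12 with B27, carbenicillin at 25 µg/ml and bFGF at 20 ng/ml. No other treatment is labelled. CUT&Tag, which tethers a transposase to antibody-bound chromatin and sequences the fragments it releases, was run on 500000 cells per library. The targets were CHD4, the ATPase of the NuRD remodelling and deacetylase complex, H3K4me3, a histone modification found at active promoters, and p300, a histone acetyltransferase recruited to promoters and enhancers in use.

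There is 1 library for each antibody and state, so replicate error could not be estimated for any difference and no p-value is given. The peak lists held 4599 CHD4 peaks in neurons and 4919 in proliferating cells, 5625 and 7472 H3K4me3 peaks, and 965 and 3144 p300 peaks. Depth is unknown, and a missing peak says only that none passed the authors' threshold there. The 2 IgG libraries are not analysed here. Among markers of the labelled cells, H3K4me3 was at a gene end of 4 of 9 neuron genes in neurons (Tubb3, Map2, Prox1 and Elavl3) and of 3 in proliferating cells, where Elavl3 lacked it. It was absent from Neurod1, Isl1, Pou4f1, Rbfox3 and Dcx in both, and at Tubb3 its peaks also reached the neighbouring gene Mc1r. Among otic progenitor genes it marked Sox2, Sox9 and Fgfr1 in both states and Eya1 in proliferating cells alone, and it was absent from Pax2, Pax8 and Gata3. Of other cell types it marked 1 of 5 hair cell genes, 1 of 6 glial genes and 2 of 6 mesenchyme genes, the same ones in both states.

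In proliferating cells 4 of the 6 genes, Hes1, Hes5, Hes6 and Hey1, carried all 3 antibodies' peaks at a gene end, and in neurons Hes6 alone did. Hey2 and Heyl had no gene-end or gene-body peak in any of the 6 lists. CHD4 was listed at gene ends of the same 4 members in neurons and in proliferating cells, against 9.95% and 11.8% of all protein-coding genes, and 7.49% of genes had it in both states. H3K4me3 was listed at 3 members in neurons and 4 in proliferating cells, against 30.0% and 37.6% of all genes, and at 3 in both states, against 29.4%. The member that lacked it in neurons was Hes1. For p300 the counts were 1 member in neurons, Hes6, and 4 in proliferating cells, against 1.24% and 8.44% of all genes. When the proliferating p300 list was cut to its 965 peaks of highest total signal, the size of the neuron list, 3 members still had p300 there (Hes1, Hes5 and Hes6). A cut by highest signal was not tried. In that ranking the p300 peaks of Hes1 and Hes5 stood at the 22.7th and 9.54th percentiles and that of Hes6 at the 85.8th. All 3 antibodies together were found at gene ends of 0.790% of genes in neurons and 6.59% in proliferating cells. With the 50 kb on either side included, CHD4 was listed near 4 members in each state, against 30.0% of all genes in neurons and 34.2% in proliferating cells. H3K4me3 was listed near 4 members in neurons and 6 in proliferating cells, against 51.7% and 59.6%, and p300 near 1 and 4, against 7.25% and 26.9%.

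**Figure D1:**
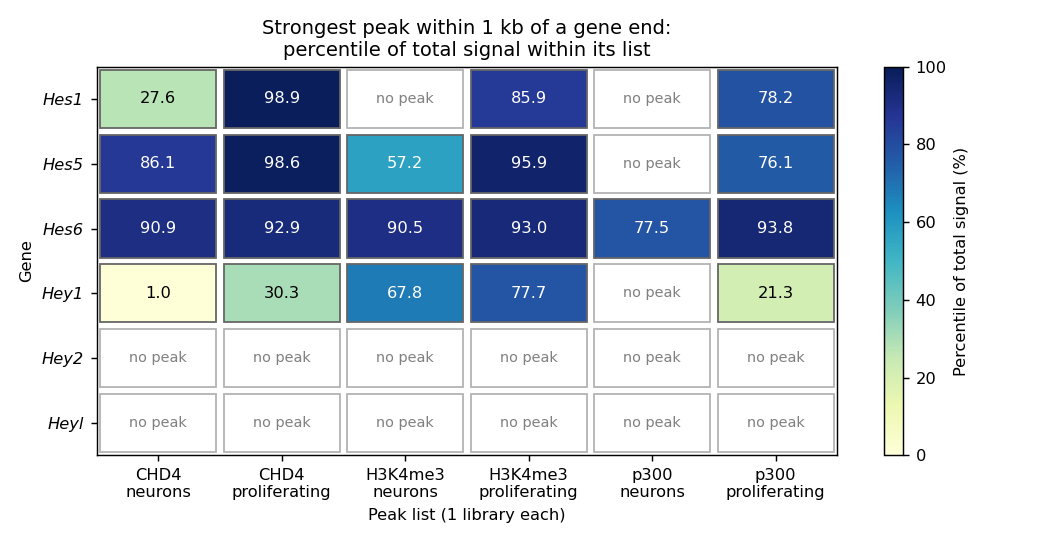
Percentile of total signal, within its own list, of the strongest peak within 1 kb of a gene end, for each of the 6 genes (rows) and 6 peak lists (columns, 1 library each, neurons left of proliferating cells). Hes6 is the one gene with a value in every list, between 77.5 and 93.8, and Hey2 and Heyl have none.

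The letters of the promoters are shown for the 3 members found in the RefSeq promoter table (build GRCm38.p6), as the 250 bases before each listed transcript start, 5′ to 3′. Hes5 and Hes6 are shown because peaks of several antibodies covered these bases, and Hey2 as a relative with no peak there. Capitals mark TGGGAA, the core of the RBPJ binding sequence, on either strand (TTCCCA when it lies on the other strand), and CANNTG, the E-box bound by bHLH factors, which reads alike on both strands.
Hes5, chr4:154960673-154960922, plus strand: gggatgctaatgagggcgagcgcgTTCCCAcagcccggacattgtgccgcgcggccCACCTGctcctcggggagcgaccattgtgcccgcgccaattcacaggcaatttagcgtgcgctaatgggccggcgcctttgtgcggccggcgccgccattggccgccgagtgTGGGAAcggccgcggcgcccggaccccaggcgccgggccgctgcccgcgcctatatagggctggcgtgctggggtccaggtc
Hes6, outer start, chr1:91414039-91414288, minus strand: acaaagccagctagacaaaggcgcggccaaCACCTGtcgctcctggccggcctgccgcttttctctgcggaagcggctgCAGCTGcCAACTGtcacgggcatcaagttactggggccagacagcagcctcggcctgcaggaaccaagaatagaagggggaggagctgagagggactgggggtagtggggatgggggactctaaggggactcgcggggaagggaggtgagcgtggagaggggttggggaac
Hes6, inner start, chr1:91413223-91413472, minus strand: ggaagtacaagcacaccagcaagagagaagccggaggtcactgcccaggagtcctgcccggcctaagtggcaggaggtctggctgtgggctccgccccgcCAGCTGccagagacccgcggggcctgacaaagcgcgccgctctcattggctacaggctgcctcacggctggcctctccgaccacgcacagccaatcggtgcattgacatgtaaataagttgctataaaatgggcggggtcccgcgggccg
Hey2, chr10:30842784-30843033, minus strand: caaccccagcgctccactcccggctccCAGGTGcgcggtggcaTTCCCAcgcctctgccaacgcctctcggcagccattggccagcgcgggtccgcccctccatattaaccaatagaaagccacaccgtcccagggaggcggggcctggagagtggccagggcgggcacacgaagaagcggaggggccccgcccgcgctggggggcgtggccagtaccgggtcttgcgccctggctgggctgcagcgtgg

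The Hes5 window held GTGGGAA, the RBPJ core with the base before it, on both strands, with the first base of each match 226 and 83 bases before the start. The Hey2 window held it once, 207 bases before the start, and neither Hes6 window held TGGGAA. Among 32851 listed promoters of the same 250 bases, 21.6% held TGGGAA and 5.42% GTGGGAA on either strand, every GTGGGAA being also a TGGGAA. E-box letters were present 3 times before the outer start of Hes6 and once in each of the other windows, and 66.2% of all promoters held at least 1. The inner Hes6 start also had TATAAA, the TATA box, 28 bases before it, as did 12.4% of promoters somewhere in the 250 bases on either strand. These matches are descriptions of letters, not of bound sites.

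Hes1, the target that many progenitors keep active under Notch, showed the largest difference in CHD4 rank by total signal between the states among the 4 marked members, and was the one without H3K4me3 in neurons. The gene occupies 2440 bp on chromosome 16 (30065357 to 30067796, mm10). In neurons CHD4 had 2 peaks that left the gene bare, one of 5150 bp (30056651 to 30061800) that ended 3557 bp before the lower end and one of 3700 bp (30067851 to 30071550) that began 55 bp past the upper end. In proliferating cells a single CHD4 peak of 15100 bp (30056451 to 30071550) covered the whole gene and was wider than or equal to 99.3% of its list. Both neuron peaks lay wholly inside the stretch of the proliferating one.

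By total signal the neuron peaks at Hes1 stood at the 18.9th and 27.6th percentiles of their list and the proliferating peak at the 98.9th. The difference from the stronger neuron peak, 71.3 percentile points, was exceeded by 19 of the 3258 proliferating CHD4 peaks that overlapped a neuron one, whose median difference was 3.65 points. Total signal grows with width. Ranked by highest signal, the gene-end peak stood at the 13.3rd percentile in neurons and the 72.2nd in proliferating cells, and ranked by signal per bp at the 51.2nd and 61.2nd, so per bp the gap was smaller than at Hey1 and at Hes5 (2.76 and 31.2). In the upper neuron peak and the proliferating peak the 50-bp position of highest CHD4 signal was identical, starting at 30069851. It lay past the upper end of Hes1, inside the long non-coding RNA gene Gm32998 (30067863 to 30070438). The lower neuron peak ranked higher by highest signal, at the 19.8th percentile, and was highest at 30059401, 10450 bp from the proliferating position.

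No H3K4me3 or p300 peak was listed within 50 kb of Hes1 in neurons. In proliferating cells H3K4me3 covered the gene with a peak of 5850 bp at the 85.9th percentile, highest 1244 bp inside the lower end. Of the 1056 proliferating H3K4me3 peaks at least as strong as this one by total signal, 14 (1.33%) overlapped no neuron peak, and of the whole list 26.0% did not. By highest signal this peak stood only at the 54.8th percentile and by signal per bp at the 55.8th. The share without a neuron peak was not computed for those rankings. In proliferating cells p300 had a peak of 5300 bp over 92.0% of the gene, at the 78.2nd percentile, and one of 2500 bp beyond the upper end, at the 50.2nd. Absence from the neuron p300 list was common at that strength, since 304 of 687 peaks as strong as the first by total signal (44.3%) overlapped none in neurons. By highest signal the first p300 peak stood at the 22.7th percentile and by signal per bp at the 41.1st.

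Hes5, a Notch target of neural progenitors, lay under very wide CHD4 peaks in both states. The gene covers 1747 bp of chromosome 4 (154960626 to 154962372) and its listed start is at 154960923. CHD4 spanned 22200 bp in neurons (154944901 to 154967100) and 20050 bp in proliferating cells (154944901 to 154964950), with the same outer edge. CHD4 was highest 12398 bp before the Hes5 start in neurons and 12448 bp before it in proliferating cells, far from the letters printed above. By total signal the peaks stood at the 86.1st percentile in neurons and the 98.6th in proliferating cells. Their other ranks were lower: by highest signal they stood at the 16.0th and 62.1st percentiles, and by signal per bp at the 2.76th and 31.2nd.

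H3K4me3 covered all of Hes5 in both states, with 8250 bp in neurons at the 57.2nd percentile and 10050 bp in proliferating cells at the 95.9th. This gap of 38.7 points by total signal was exceeded by 353 of the 5529 proliferating H3K4me3 peaks found again in neurons, where the median was 7.45. By highest signal H3K4me3 at Hes5 ranked at the 14.4th percentile in neurons and the 56.1st in proliferating cells. By signal per bp it ranked at the 2.95th and the 35.1st. Its highest position lay 3652 bp past the Hes5 start in neurons and 3602 bp past it in proliferating cells, which is 452 and 402 bp from the start of the neighbouring gene Pank4 and 298 and 248 bp from that of the long non-coding RNA gene Gm42363. Both starts lay under the H3K4me3 and CHD4 peaks of both states and the proliferating p300 peak, so the share of each gene in these peaks cannot be told apart. No p300 peak was listed near Hes5 in neurons, and in proliferating cells one of 8250 bp at the 76.1st percentile was highest 102 bp past the Hes5 start, next to the printed bases. By highest signal that p300 peak ranked at the 9.54th percentile. Of 751 p300 peaks at least as strong by total signal, 346 (46.1%) overlapped no neuron peak.

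Hes6, the family member linked to neuronal differentiation, was the one member listed with all 3 marks in both states. The gene lies on the minus strand of chromosome 1 (91411483 to 91414038, 2556 bp), with its outer start at 91414038 and its inner start at 91413222. CHD4 spanned 5050 bp in neurons (91411051 to 91416100) and 4550 bp in proliferating cells (91411201 to 91415750), at the 90.9th and 92.9th percentiles. H3K4me3 spanned 6000 bp and 5050 bp, at the 90.5th percentile in neurons and the 93.0th in proliferating cells. p300 spanned 4850 bp in neurons, at the 77.5th percentile, and 5900 bp in proliferating cells, at the 93.8th. Each of these 6 peaks covered the entire gene. By total signal neurons ranked lower by 2.00 points for CHD4, 2.56 for H3K4me3 and 16.3 for p300, beside median signed differences of 3.65, 7.45 and 15.1 over all proliferating peaks of these lists found in neurons. By highest signal the gaps were wider, with the 60.0th percentile in neurons and the 86.1st in proliferating cells for H3K4me3, the 59.8th and 85.8th for p300, and the 70.6th and 77.0th for CHD4. By signal per bp CHD4 ranked higher in neurons, at the 95.1st percentile against the 91.6th in proliferating cells. H3K4me3 and p300 ranked lower in neurons per bp, at the 73.6th against the 87.0th and the 61.2nd against the 75.1st. Of all genes, 196 (0.896%) carried p300 at a gene end in both states.

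At Hes6 the places of highest signal lay near its 2 starts. H3K4me3 was highest 97 bp past the inner start in neurons and 53 bp before it in proliferating cells. p300 was highest 237 bp before the outer start in neurons and 287 bp before it in proliferating cells. For CHD4 the highest position lay 137 bp before the outer start in neurons, whereas in proliferating cells it lay 203 bp before the inner start, 750 bp away. The neuron CHD4 and H3K4me3 peaks also reached the nearer end of Per2, a circadian clock gene that begins 1939 bp from Hes6.

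Hey1, a Notch target and repressor, carried the lowest-ranked CHD4 peak by total signal among the 4 marked members in neurons. The gene covers 3680 bp of chromosome 3 (8663359 to 8667038). CHD4 spanned 5900 bp at its upper end in neurons (8664351 to 8670250) and 2550 bp in proliferating cells (8666551 to 8669100). The neuron peak stood at the 1.04th percentile of its list, just above the weakest listed, and the proliferating one at the 30.3rd. By highest signal the order turned, with the 16.5th percentile in neurons and the 14.7th in proliferating cells. H3K4me3 spanned 4700 bp at the 67.8th percentile in neurons and 7750 bp at the 77.7th in proliferating cells, highest at positions 50 bp apart. For H3K4me3 the order turned in both other rankings. It stood at the 61.1st percentile in neurons and the 45.7th in proliferating cells by highest signal, and at the 56.4th and 13.9th by signal per bp. No p300 peak was listed there in neurons, and in proliferating cells one of 2750 bp stood at the 21.3rd percentile. Every one of these peaks also lay over the predicted protein-coding gene LOC115489673 (8666924 to 8669688), which overlaps that end of Hey1, so the share of each gene cannot be told apart.

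Hey2 and Heyl, which are best known from heart and vessels, had no CHD4 or p300 peak within 50 kb in either state. In proliferating cells an H3K4me3 peak of 3000 bp stood 27559 bp from Hey2, with its highest position 51 bp from a start of the neighbouring gene Ncoa7, and in neurons none was listed. Near Heyl H3K4me3 was listed in both states, at the 81.5th percentile in neurons and the 47.1st in proliferating cells, over the start of Pabpc4, which encodes a poly(A)-binding protein. Genes with no peak of any antibody at an end were the majority, 67.1% in neurons and 60.6% in proliferating cells.

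**Figure D2:**
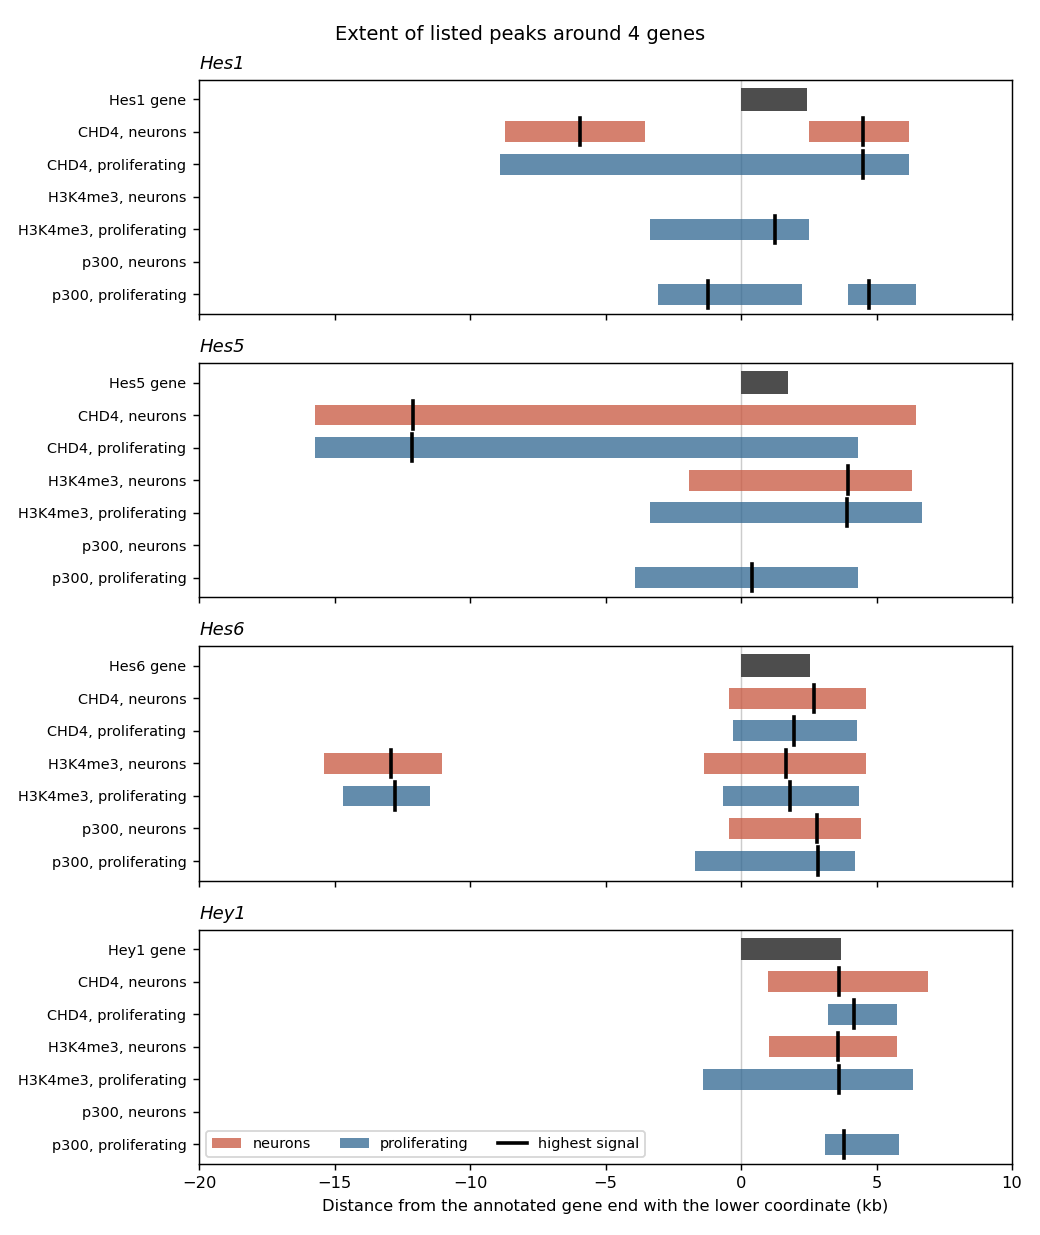
Listed peaks (bars) around Hes1, Hes5, Hes6 and Hey1, in kb from the annotated gene end with the lower coordinate, with neurons above proliferating cells for each antibody and black ticks at the position of highest signal. CHD4 at Hes1 has 2 short bars in neurons, one on either side of the gene, and 1 bar of 15100 bp over it in proliferating cells, while the bars at Hes6 nearly coincide; peaks farther out are not drawn.

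Hes5 had the widest gene-end peak of the members in each of the 5 lists where it had one. Its CHD4 peak was at least as wide as 98.8% of the neuron list and 99.9% of the proliferating list, and its H3K4me3 peak as 94.9% and 98.1%. The list medians for CHD4 were 5200 bp in neurons and 3400 bp in proliferating cells, so wider CHD4 peaks in neurons were general. Against that, the Hes1 gene-end CHD4 peak was narrower in neurons, 0.245 times its proliferating width, that of Hes5 1.11 times, that of Hes6 1.11 times and that of Hey1 2.31 times. For H3K4me3 the width in neurons was 0.821 times that in proliferating cells at Hes5, 0.606 times at Hey1 and 1.19 times at Hes6.

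**Figure D3:**
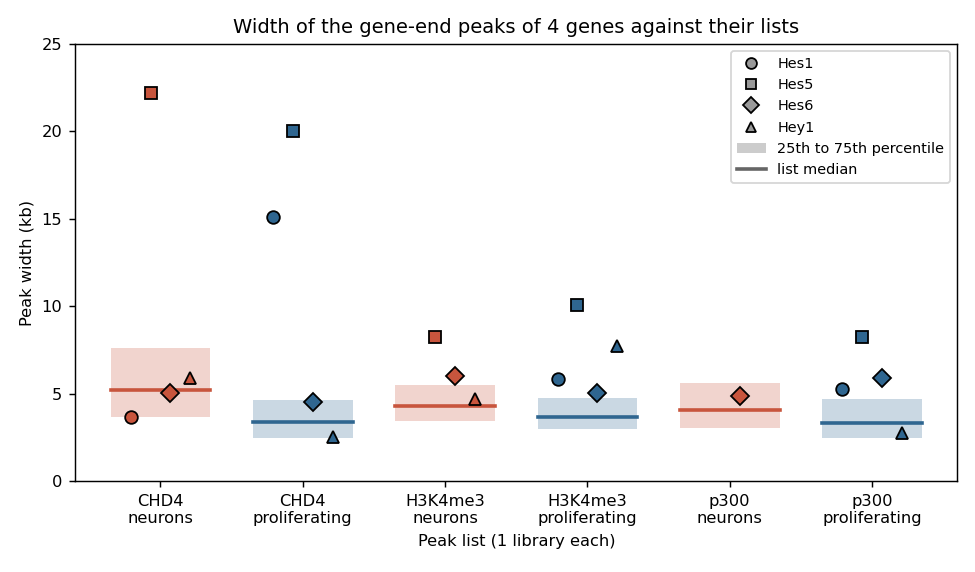
Width in kb of the strongest gene-end peak of Hes1, Hes5, Hes6 and Hey1 in each list (symbols), over the 25th to 75th percentile of all peaks of the list (boxes) and the list median (lines), neurons left of proliferating cells. Hes5 lies above the box in all 5 lists where it has a peak, and Hes1 lies at the low edge of the CHD4 box in neurons and far above the box in proliferating cells.

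All 6 neuron CHD4 peaks near them overlapped a proliferating CHD4 peak, and 5 of 6 proliferating ones overlapped a neuron peak, against 67.4% of all neuron CHD4 peaks and 66.2% of all proliferating ones. The exception was a peak of 5000 bp on the far side of LOC115489673 from Hey1 (8714951 to 8719950), 47913 bp from the gene and at the 72.4th percentile, a strength at which 8.02% of proliferating CHD4 peaks were not found again. CHD4 overlapped p300 at 1 of 6 peaks in neurons and 6 of 6 in proliferating cells, against 20.0% and 58.1% of all CHD4 peaks. It overlapped H3K4me3 at 4 and 5, against 26.8% and 42.2%. The highest positions of overlapping neuron and proliferating CHD4 peaks were within 100 bp of each other for 3 of 6 pairs, against 70.3% of 3100 neuron peaks over the genome. In proliferating cells p300 and CHD4 were highest within 100 bp of each other at 1 of 6 p300 peaks, the one at Per2, against 73.0% of 2888 over the genome. At Hes1 and Hes5 the highest p300 positions of the gene-end peaks lay 5750 bp and 12550 bp from those of CHD4. The other p300 peak at Hes1, beyond the upper end, was highest 200 bp from the CHD4 position.

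Near Hes6 the flank peaks lay at ends of neighbouring genes. By total signal Per2 carried CHD4 at its far end at the 80.3rd percentile in neurons and the 80.9th in proliferating cells, and H3K4me3 at the 12.8th and 67.4th. That H3K4me3 gap of 54.6 points was exceeded by 70 of 5529 peaks. By highest signal this CHD4 peak stood at the 44.6th percentile in neurons and the 70.2nd in proliferating cells, and by signal per bp at the 59.6th and 47.8th. The H3K4me3 peak ranked lower in neurons by these rankings as well. p300 was listed at that end of Per2 in proliferating cells alone. Ilkap, which encodes a phosphatase, had H3K4me3 at the 19.8th percentile in neurons and the 41.0th in proliferating cells.

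The 4 marked members were then set among all genes that had CHD4, H3K4me3 and p300 at gene ends in proliferating cells, 1443 in number. In neurons 61.3% of these carried CHD4 and H3K4me3 without p300, as did Hes5 and Hey1. All 3 were listed at 9.22%, among them Hes6. CHD4 alone was listed at 7.48%, 108 genes, among them Hes1. A further 17.7% had H3K4me3 alone, 3.05% had nothing and 1.32% had CHD4 with p300. Among these patterns the one of Hes5 and Hey1 was thus the usual one.

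**Figure D4:**
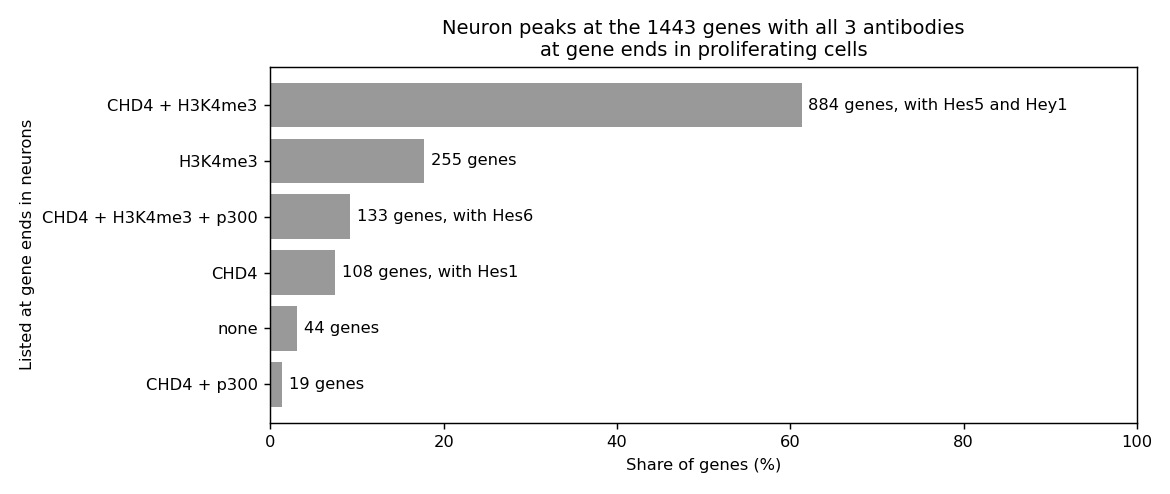
Share of the 1443 genes with all 3 antibodies at gene ends in proliferating cells (bars, in percent) by what was listed at their ends in neurons, with the number of genes and the members in each class. Hes5 and Hey1 fall in the class of 884 genes, Hes6 in that of 133 and Hes1 in that of 108.

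Among the lists of other pathway genes, CHD4 was most complete at the genes of the TLE family. Of 6 TLE genes all had CHD4 at a gene end in both states. Tle1, Tle3 and Tle4 had peaks of their own, at the 69.4th, 80.3rd and 59.7th percentiles in neurons and the 75.2nd, 89.1st and 82.0th in proliferating cells. Tle2, Tle5 and Tle6 are neighbours on chromosome 10 that share some of their peaks, so they do not all count as separate sites. In proliferating cells Tle6 had a CHD4 peak of its own. In neurons the highest CHD4 percentile of the TLE genes, 82.5, was that of the peak shared by Tle2 and Tle6, and in proliferating cells it was 94.1, at Tle6. H3K4me3 marked 3 TLE genes in neurons and 5 in proliferating cells, and p300 1 and 5.

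Of 6 other bHLH-Orange genes, 4 had CHD4 at a gene end in each state: Hes3, Hes7, Bhlhe40 and Bhlhe41. Hes3 lay under the strongest, at the 99.7th percentile in neurons and the 99.9th in proliferating cells, a peak of 36700 bp and 31500 bp that also reached the genes Acot7 and Gpr153. Hes3 had no H3K4me3 in either state. Hes7, the oscillating repressor of somite formation, had CHD4 at the 86.9th percentile in neurons and the 98.6th in proliferating cells and H3K4me3 in both, under peaks that also reached its neighbour Aloxe3. Bhlhe41 ranked higher in neurons, at the 75.3rd percentile against the 60.7th in proliferating cells.

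None of 4 genes of the Notch transcription complex (Rbpj, Maml1, Maml2 and Maml3) had CHD4 or p300 at a gene end in either state. The shares over all genes, given below, are low too, so for 4 genes this is no clear contrast. H3K4me3 was listed at 2 of them in neurons (Maml1 and Maml3) and at 3 in proliferating cells (Maml2 as well). Among the receptors CHD4 was listed at Notch1 and Notch2 in both states and at Notch4 in proliferating cells alone, there at the 10.1st percentile. Notch1 was the strongest, at the 92.3rd percentile in neurons and the 96.4th in proliferating cells. Among the ligands Dll1 was the strongest, at the 97.8th and 99.4th percentiles, Jag1 had CHD4 in both states and Jag2 in neurons alone, under a peak of 13950 bp that also reached Nudt14. Of 7 proneural genes, the usual targets of Hes repressors, Neurog2 had CHD4 in both states, at the 44.6th percentile in neurons and the 67.7th in proliferating cells, and Atoh1 in neurons alone at the 77.2nd. Over these 32 genes CHD4 was at a gene end of 17 in neurons and 16 in proliferating cells, H3K4me3 of 15 and 18, and p300 of 4 and 12, with the neighbours Tle2, Tle5 and Tle6 each counted. Over all protein-coding genes the shares were 9.95% in neurons and 11.8% in proliferating cells for CHD4, 30.0% and 37.6% for H3K4me3, and 1.24% and 8.44% for p300.

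**Figure D5:**
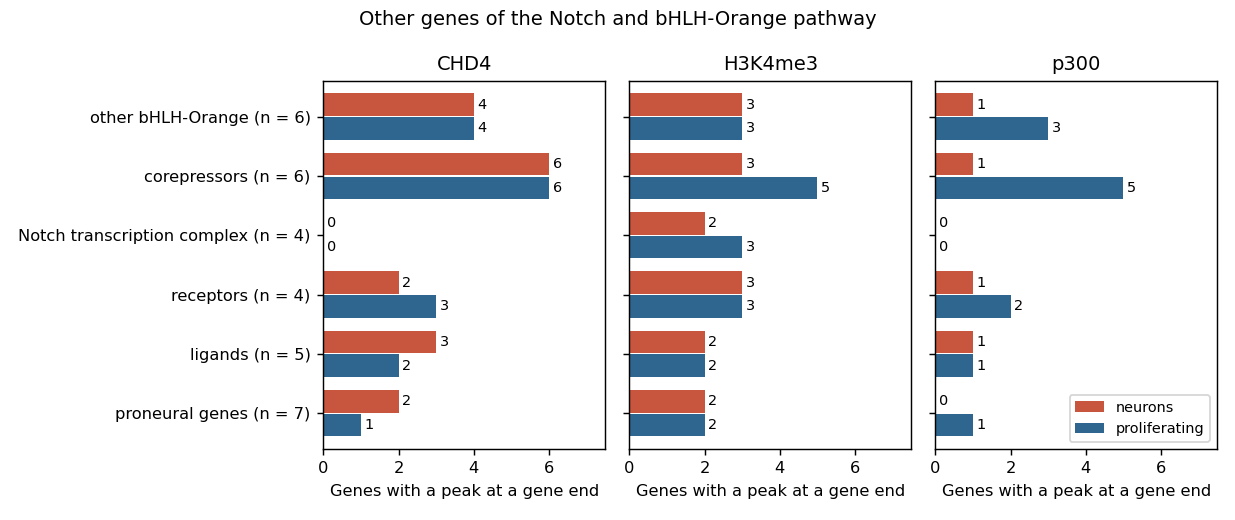
Number of genes with a peak at a gene end in 6 lists of related genes, for CHD4, H3K4me3 and p300, with neurons above proliferating cells in each pair of bars. All 6 genes of the TLE family (labelled corepressors) have CHD4 in both states, and none of the 4 genes of the Notch transcription complex does. Over all protein-coding genes the CHD4 share is 9.95% in neurons and 11.8% in proliferating cells.

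Likeness to a member was measured as the mean absolute difference in percentile over the 6 lists, counting a missing peak as 0. Nearest to Hes1 was Id3, which encodes an inhibitor of bHLH factors, at a mean difference of 7.81 points, followed by Hic1 at 8.70 and Trim7 at 8.93. Id3, like Hes1, had CHD4 in both states, at the 47.6th percentile in neurons and the 94.1st in proliferating cells, and no H3K4me3 or p300 at its ends in neurons. Nearest to Hes5 were Ssbp4 (5.57), Ndufs7 (5.58) and the TLE family gene Tle5 (6.05). Nearest to Hes6 were Insig1 (2.17), Klf10 (2.65) and Mc1r (3.91), which shares its peaks with the neuronal tubulin gene Tubb3 next to it. Nearest to Hey1 were Serf2 (2.44), Thrap3 (2.90) and Strn3 (3.03), which had no CHD4 at a gene end in neurons, where Hey1 had its peak at the 1.04th percentile.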

How the data were processed

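Peak lists for CHD4, H3K4me3 and p300 in 2 states, 1 library each, were used as the authors deposited them. Per the submitters' processing notes, tools included SEACR, Bowtie2 and deepTools, with mm10 as the build. Versions, peak thresholds and whether IgG entered the calling are not given in the sources used here. All lists have the 6 columns of SEACR output, with total and highest signal per peak. These signal values are the authors' deposited ones, their scaling is unknown, and they served only to rank peaks within a list. A percentile is the share of peaks of the list at or below a value. Positions run in steps of 50 bp and are printed counted from 1.

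Genes came from RefSeq GRCm38.p6, which shares its coordinates with mm10. The gene table gives no strand; starts and strands were taken from the RefSeq promoter table, which held 3 of the 6 genes. Overlap meant at least 1 bp. Counts were set beside the share of all 21887 protein-coding genes, and no test was made. Work was done in Python 3.11.15 with numpy 2.4.6 and pandas 2.3.3, and the overlap code was checked on simulated peaks.

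The members, gene lists and naming rule were chosen with earlier results of these data known. Named were all members, pathway genes whose CHD4 differed between states or was the strongest of their list, the 3 genes most like each marked member beyond 100 kb, and neighbours within 50 kb; other genes were chosen after their values were seen. Alternatives tried were other windows, flanks and overlaps, the stronger 50% of each list, equal list sizes and other rankings.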

Additional observations from a re-analysis of the deposited data

How the results depend on the processing

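Of 84 recomputed counts from 24 results, 74 stayed within 1.5 times the reported count. With the stronger 50% of each list, the members with CHD4 at a gene end in neurons numbered 2, the CHD4 peaks near members in neurons 3, those of them that overlapped a proliferating CHD4 peak 3 and those that overlapped H3K4me3 2. In that setting 3 proliferating CHD4 peaks near members overlapped a neuron one, and 5 H3K4me3 peaks lay near members in proliferating cells. With peaks counted only where the member was the nearest protein-coding gene, the H3K4me3 peaks near members numbered 3 in neurons and 4 in proliferating cells, and with a flank of 25 kb those in proliferating cells numbered 5. With at least 50% of the peak covered, 3 proliferating CHD4 peaks overlapped H3K4me3. Other windows around gene ends, a wider flank, gaps allowed between peaks and lists cut to equal size by total signal moved no count beyond 1.5 times. The 6 counts from listed transcript starts alone, included above, covered only the 3 members with a listed start, Hes5, Hes6 and Hey2. Gene-end peaks of Hes5 and Hes6 covered the whole gene and Hey2 had none, so that setting could not move a count. It was not tried for Hes1 or Hey1.

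Percentiles depended on the ranking. Of 20 gene-end peaks, 18 ranked lower by highest signal than by total signal and 15 ranked lower by signal per bp. The largest move was that of the Hes5 CHD4 peak in neurons, at the 86.1st percentile by total signal and the 2.76th by signal per bp. The gene-end peaks of Hes6 kept percentiles of 59.8 or more in every list and ranking. No paired analysis was possible because each group holds 1 library. With 1 library per group and unknown depth, a peak missing from a list may lie just under its threshold.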
